A study of Sus scrofa domesticus with 4 samples.

Results

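The antioxidant enzymes described here are 10 listed pig genes, namely SOD1, SOD2, CAT, GPX1, GPX3, GPX4, PRDX2, PRDX6, HMOX1 and TXN. The members were found as all non-control probes whose RefSeq accession belongs to a listed gene in the Sscrofa11.1 gene table, which gave 37 of 43603 probes and 9 of the 10 genes, among 3029 genes matched on the array. No probe matched SOD2, the mitochondrial dismutase, by RefSeq accession, and it was not analysed here. Probes with other identifiers could not be mapped to genes, so the array may still hold a probe for it. Of the 37 probes, 36 were bright enough to test, of 19879 tested in all. The probe left out was 1 of 9 CAT probes, which was well above background on 3 arrays in the orexin B channel and on 1 array in the untreated channel.

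Cells meet reactive oxygen species with a relay of enzymes. Superoxide dismutases turn superoxide into hydrogen peroxide, and catalase, glutathione peroxidases and peroxiredoxins then reduce the peroxide. Thioredoxin returns electrons to most peroxiredoxins, and heme oxygenase, a target of the stress factor NRF2, breaks down free heme. In the uterus these enzymes act while the wall is remodelled and its blood supply changes in early pregnancy.

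The study addressed the effect of the neuropeptide orexin B on gene expression in pig myometrium, the muscle layer of the uterus. Slices of the uterine horns of mature crossbred gilts (Large White x Polish Landrace, aged 7 to 8 months) on days 15 to 16 of gestation were held for 24 h in medium with 10 nM orexin B, and untreated slices were held for the same time in medium alone. RNA of an orexin B culture and of an untreated culture was hybridised together on each of 4 Agilent arrays, with orexin B RNA in Cy5 on arrays 1 and 3 and in Cy3 on arrays 2 and 4. The labels give 4 gilts and 4 experiments with cultures in duplicate, but do not say whether both RNAs of an array came from the same gilt or how the duplicates were combined. Cultured slices lack the blood flow of the living uterus, and all arrays share the culture itself.

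Ratios are given as log2 of orexin B over untreated, so that positive values are higher with orexin B, and each error is limma's moderated standard error (SE) over 4 arrays. Between 48.7% and 54.3% of probes on an array were well above background in the orexin B channel, and between 37.6% and 58.2% in the untreated channel. The members were bright, with a median intensity percentile of 92.7 among tested probes for the brightest probe of each gene. All named genes, taken in the same way, had a median of 65.6. The 36 tested member probes together had a median of 81.2, with the lowest at 18.7. No probe on the arrays was saturated. The number of arrays limits the precision. Defining smooth muscle markers were measured, with 8 of 8 genes on the array above the brightness filter. In bulk RNA, fewer cells of a type and less RNA per cell cannot be told apart.

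No antioxidant enzyme gene differed between orexin B and untreated slices beyond the spread between arrays. After adjustment over all 19879 tested probes, 0 of the 36 member probes passed a limma p of 0.05 (smallest adjusted p = 0.731), and 0% of all probes did. None reached an unadjusted p under 0.05 either, against 7.72% of all tested probes. The 9 genes, each by its brightest probe, split into 4 above 0 and 5 below 0, with a median log2 ratio of -0.011, where all tested probes had a median of 0.018 and 54.1% of them lay above 0. By probe the split was less even, with 10 of 36 above 0 and 26 below and a median of -0.036, the 26 including 8 of CAT and 6 of GPX1. By the brightest probe, mean ratios ran from -0.21 for PRDX2 to 0.24 for PRDX6. Averaged over all tested probes of a gene, they ran from -0.27 for GPX1 to 0.17 for PRDX6, with PRDX2 at -0.13.

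**Figure D1:**
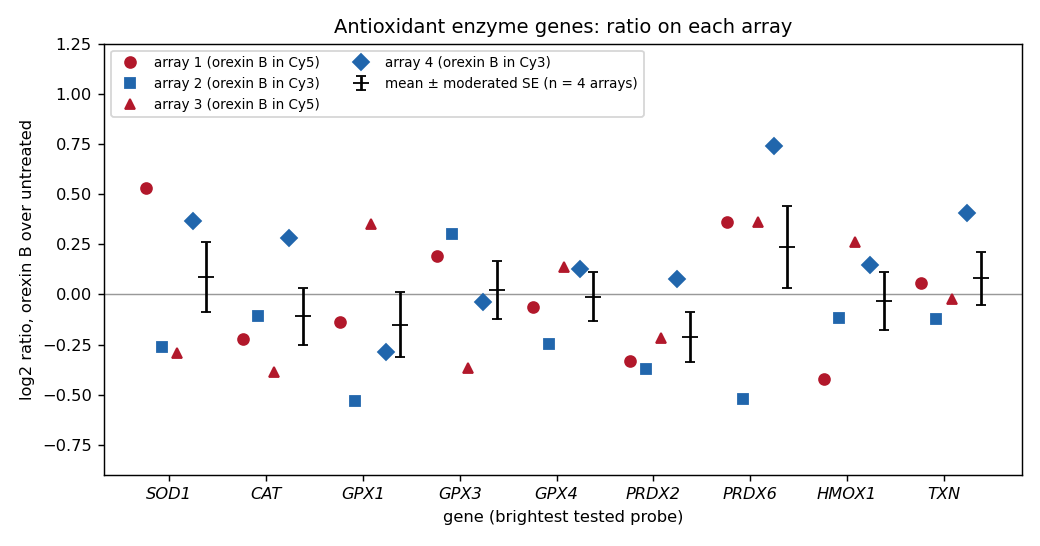
The log2 ratio of orexin B over untreated (vertical axis) for the brightest tested probe of each antioxidant gene (horizontal axis), with a marker for each array coloured by the dye of the orexin B RNA and the mean with its moderated SE to the right. Every gene has arrays on both sides of 0, and the highest and lowest means are 0.24 for PRDX6 and -0.21 for PRDX2.

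The intervals show how large a difference these arrays leave possible. For the brightest probes, the 95% intervals of the mean ran no lower than -0.53 and no higher than 0.72, which is 1.45-fold lower and 1.64-fold higher with orexin B. Over all 36 probes they ran from -0.88, for a GPX1 probe, to 0.90, for a PRDX6 probe. The narrowest of the brightest probes was that of GPX4, at -0.30 to 0.28. These intervals are for single probes and are not adjusted for their number, and the missing calls do not show that levels were equal.

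**Figure D2:**
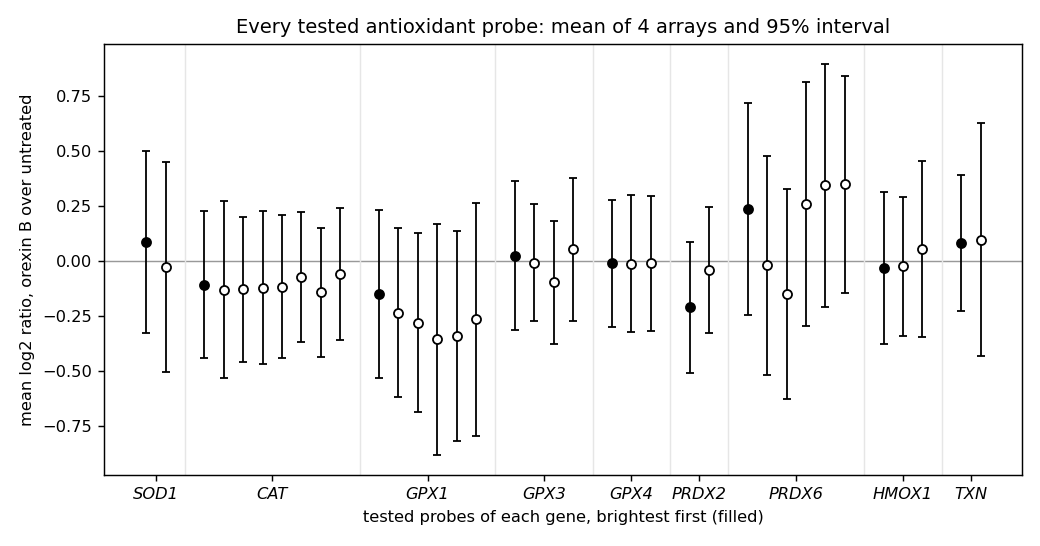
The mean log2 ratio over 4 arrays (vertical axis) of each of the 36 tested probes, grouped by gene and ordered from the brightest probe (filled) to the dimmest, with bars for the 95% interval from limma. Every interval holds 0, and the 6 GPX1 probes have means between -0.36 and -0.15.

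SOD1, the copper and zinc dismutase of the cytosol, had ratios of 0.53, -0.26, -0.29 and 0.37 on arrays 1 to 4 by its brightest probe (A_72_P721668). Arrays 1 and 4 were above 0 and arrays 2 and 3 below, and the mean was 0.085 ± 0.17 (SE, n = 4; limma adjusted p = 0.926). Its second probe (A_72_P757088) had 0.53, -0.67, -0.22 and 0.24 on the same arrays, with the same signs and a mean of -0.029 ± 0.20. The copper chaperone CCS, which loads SOD1, had a mean of -0.13 ± 0.15. SOD3, the secreted dismutase, was not well above background on all arrays in either channel and was not tested.

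CAT encodes catalase, the peroxisomal enzyme that splits hydrogen peroxide. Its brightest probe (A_72_P632481) had ratios of -0.22, -0.11, -0.39 and 0.28 on arrays 1 to 4, so that only array 4 lay above 0, and a mean of -0.11 ± 0.14 (limma adjusted p = 0.875). The mean was -0.016 without replicate 3 and -0.24 without replicate 4. All 8 tested CAT probes had means below 0, between -0.14 and -0.061. On array 4 all 8 were above 0, between 0.12 and 0.45, and on arrays 2 and 3 all 8 were below 0. The probes of this gene share its transcript and are not replicates of the treatment.

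GPX1, the selenium-dependent glutathione peroxidase of cytosol and mitochondria, had ratios of -0.14, -0.53, 0.35 and -0.29 on arrays 1 to 4 by its brightest probe (A_72_P623069). Array 3 alone was above 0, and the mean was -0.15 ± 0.16 (limma adjusted p = 0.845). It was -0.024 without replicate 2 and -0.32 without replicate 3. All 6 probes had the same signs on each array, with means from -0.36 to -0.15, and their average over probes was -0.29, -0.80, 0.35 and -0.35 on arrays 1 to 4. Array 2 held the lowest values, between -1.06 and -0.53. In levels, the brightest probe had log2 intensities of 15.33, 14.56, 15.97 and 15.26 with orexin B, against 15.46, 15.10, 15.61 and 15.55 in untreated slices on the same arrays. The orexin B values spread over 1.40 and the untreated ones over 0.52, and the groups overlapped. The test compares the RNAs within each array, so overlap of levels across arrays does not decide it.

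GPX4 reduces lipid hydroperoxides within membranes and protects cells from ferroptosis. Its ratios were -0.062, -0.25, 0.14 and 0.13 on arrays 1 to 4 by its brightest probe (A_72_P388853), and its 3 probes had means between -0.013 and -0.011 (limma adjusted p = 0.991 for the brightest). Its average over probes was -0.049, -0.28, 0.062 and 0.22 on those arrays. Of other glutathione peroxidases, GPX2, GPX5 and GPX6 were on the array, and none was bright enough to test.

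GPX3, the secreted glutathione peroxidase of plasma and extracellular fluid, had a mean ratio close to 0. The brightest probe (A_72_P666610) had ratios of 0.19, 0.30, -0.37 and -0.035 on arrays 1 to 4 and a mean of 0.023 ± 0.14 (limma adjusted p = 0.981). Its 4 probes split into 2 above 0 and 2 below.

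The level of GPX3, in contrast, differed widely between arrays, and it did so in both channels. The brightest probe had log2 intensities of 10.62, 8.999, 10.83 and 12.46 with orexin B on arrays 1 to 4, against 10.43, 8.70, 11.19 and 12.50 in untreated slices. Array 2 was lowest and array 4 highest in both groups. The mean of both channels spanned 3.63 on the log2 scale between arrays 2 and 4, a 12.4-fold range, and 13.4-fold in the raw brightness of the spots. The standard deviation (SD) of this level over arrays, 1.496, was exceeded by 0.137% of all tested probes, whose median SD was 0.23. Without replicate 2 the range was 1.95, with array 4 still highest, and without replicate 4 it was 2.16.

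The other 3 GPX3 probes had the same highest and lowest arrays, with ranges of 2.10, 2.13 and 1.09 from the brighter to the dimmest. For the probes with ranges of 2.10 and 2.13, the orexin B channel cleared background on only 3 of 4 arrays, so their ranges are less certain. The dimmest probe, at intensity percentile 18.7, cleared it in both channels of all 4. Each array compares different cultures, so gilt, experiment and array cannot be told apart in these levels. Cell markers moved between arrays as well. Relative to their own means, the macrophage markers stood at 0.11, -0.28, -0.45 and 0.64 on arrays 1 to 4 in median log2 level, and the 2 epithelial markers, EPCAM and KRT8, at -0.57, 1.05, -0.31 and -0.17. The 2 neutrophil markers, S100A8 and S100A12, moved most, at -1.67, 0.022, 0.49 and 1.17, with array 4 highest and array 1 lowest. Smooth muscle markers stood at 0.26, -0.43, 0.016 and 0.080. Their part in the GPX3 levels was not tested.

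**Figure D3:**
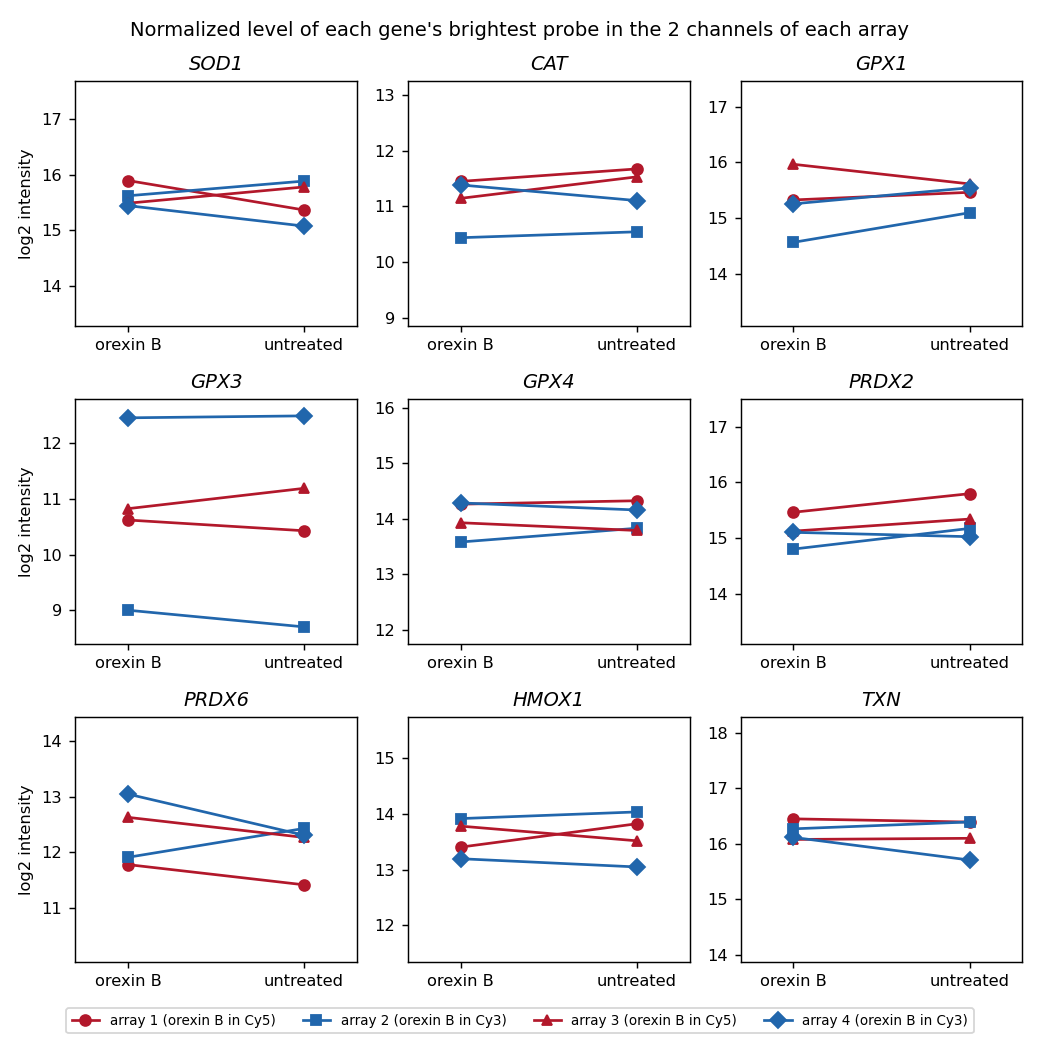
Normalized log2 intensity (vertical axis, of equal span in every panel) of the brightest probe of each gene in orexin B slices (left) and untreated slices (right), with a line for each array. GPX3 levels lie between 8.70 and 12.50 and keep array 4 highest and array 2 lowest in both groups, while the lines of most other genes lie close together.

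Over the brightest probes of the other 8 genes, the range between arrays was between 0.49 for SOD1 and 1.08 for PRDX6. CAT had a range of 1.07, with array 2 lowest in both groups, and GPX1 one of 0.96. Levels of different probes are not compared here, because each probe binds with its own strength.

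PRDX2, a peroxiredoxin of the cytosol that is abundant in red blood cells, had ratios of -0.33, -0.37, -0.22 and 0.078 on arrays 1 to 4 by its brightest probe (A_72_P383583). Arrays 1 to 3 were below 0, and the mean was -0.21 ± 0.13 (95% interval -0.51 to 0.086, limma adjusted p = 0.733). The second probe had a mean of -0.041 ± 0.12, with arrays 3 and 4 above 0. No red blood cell marker of the list matched a probe by RefSeq accession, so blood content could not be set beside it. Probes with other identifiers were not mapped to genes, so this does not show that the array lacks such markers.

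PRDX6 reduces peroxides with electrons from glutathione and also has phospholipase activity. Its brightest probe (A_72_P575489) had ratios of 0.36, -0.52, 0.36 and 0.74 on arrays 1 to 4, with array 2 alone below 0, and a mean of 0.24 ± 0.20 (95% interval -0.24 to 0.72, limma adjusted p = 0.803). Without replicate 2 the mean was 0.49 with an unadjusted p of 0.0111 and a limma adjusted p of 0.682, and without replicate 4 it was 0.069 with an unadjusted p of 0.764. In levels, the probe had log2 intensities of 11.78, 11.91, 12.63 and 13.05 with orexin B, against 11.41, 12.43, 12.27 and 12.31 in untreated slices. The groups overlapped.

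The 6 PRDX6 probes disagreed on direction, with 4 means above 0, between 0.24 and 0.35, and 2 below, at -0.020 and -0.15. The disagreement was widest on array 1, where the 4 probes averaged 0.54 and the other 2 averaged -0.34. On arrays 2, 3 and 4 the 4 probes averaged -0.56, 0.43 and 0.76, and the other 2 averaged -0.65, 0.060 and 0.60. This grouping was made after the values were seen and was not tested. All 6 probes were below 0 on array 2 and above 0 on array 4.

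**Figure D4:**
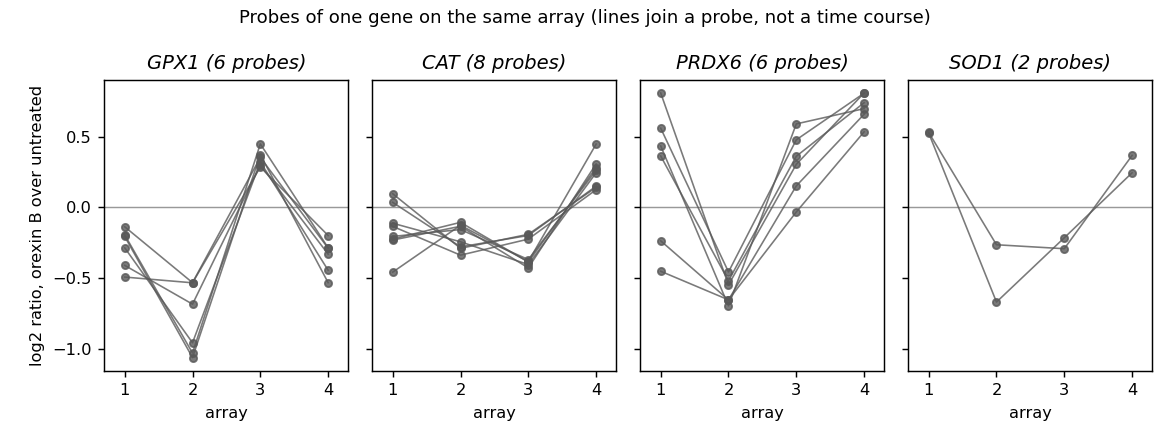
The log2 ratio of orexin B over untreated (vertical axis) on each array (horizontal axis) for the tested probes of GPX1, CAT, PRDX6 and SOD1, with a line for each probe. Probes of a gene keep together on most arrays, and the 6 PRDX6 probes spread most on array 1, from -0.45 to 0.81.

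TXN, thioredoxin, had ratios of 0.058, -0.12, -0.021 and 0.41 on arrays 1 to 4 by its brightest probe (A_72_P177678) and a mean of 0.080 ± 0.13 (limma adjusted p = 0.902). Its second probe (A_72_P546866) had -0.29, 0.38, -0.51 and 0.81, below 0 on both arrays with orexin B in Cy5 and above 0 on both with it in Cy3. The mean of that probe was 0.096 ± 0.22. The probes thus had like means but different array patterns.

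HMOX1, the inducible heme oxygenase, had ratios of -0.42, -0.12, 0.26 and 0.15 on arrays 1 to 4 by its brightest probe (A_72_P078091) and a mean of -0.032 ± 0.15 (95% interval -0.38 to 0.31, limma adjusted p = 0.971). Its 3 probes had means between -0.032 and 0.054. Array 2 was below 0 and array 3 above 0 for all 3. HMOX1 is also a gene of heme-clearing macrophages, and the 9 macrophage and monocyte markers measured had a median log2 ratio of 0.60, with array medians of 0.69, 0.18, 0.86 and 0.76. All 9 markers had means above 0, from 0.084 for CD14 to 0.98 for C1QB, and MRC1 was fitted on 3 arrays. Of the 9, 8 had an unadjusted limma p under 0.05, and none passed the adjusted threshold. The share at that level was 7.72% of all tested probes (4.31% higher) and 10.5% of named genes by their brightest probe. The 9 were chosen as markers of the same cells, so they are not independent. The part of macrophage content in the HMOX1 values was not tested.

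The members' signs differed between arrays. On array 2, 1 of the 9 member genes was above 0 (GPX3) and the median was -0.25. On array 4, 7 of 9 were above 0 and the median was 0.15. Arrays 1 and 3 each had 4 of 9 above 0, with medians of -0.062 and -0.021. Over all tested probes the medians on arrays 1 to 4 were 0.024, 0.021, 0.0042 and 0.0036. Of these probes, 52.0% lay above 0 on array 2 and 50.5% on array 4. Among probes above intensity percentile 80 the medians were -0.0063, 0.015, -0.015 and 0.040. For all named genes by their brightest probe, as for the members, they were 0.051, -0.093, 0.028 and 0.051. The 38 related redox genes described below had medians of 0.039, -0.14, -0.074 and 0.080. No member probe had the same sign on all 4 arrays (0 of 36), against 16.0% of all tested probes. Probes of a gene share its transcript, so the 36 are not independent.

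Arrays 2 and 4, which lie at opposite ends for the members, have the same dye orientation and share a slide with array 3. Their ratios over all tested probes correlated at r = 0.36 across probes, which are not independent. This was the highest r of any pair of arrays. The other pairs ran from -0.18 for arrays 2 and 3 to 0.14 for arrays 1 and 3, which also share a dye orientation. A term for dye orientation passed an adjusted p of 0.05 for 0 member probes in limma (smallest adjusted p = 0.253) and an unadjusted p under 0.05 for 2 of 36, against 12.5% of all tested probes. The 2 were the second TXN probe, with an orientation part of -0.50 ± 0.13 (unadjusted p = 0.00607), and a GPX1 probe (A_72_P689751), with 0.44 ± 0.15 (unadjusted p = 0.0241). On the slide with 3 arrays alone, the members' median ratio was -0.034, and 0 members reached an unadjusted p under 0.05.

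Probes of a gene followed each other more closely than arrays did. For 8 of the 9 genes, the SD of the gene's average ratio over arrays was larger than the mean SD between its probes on an array. For SOD1 these were 0.47 between arrays and 0.11 between probes, for GPX1 0.47 and 0.14, and for GPX4 0.21 and 0.056. GPX3 was the exception, with 0.13 between arrays and 0.19 between probes. For 5 genes (CAT, GPX1, GPX4, PRDX2 and TXN) all tested probes had means on the same side of 0.

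Genes of the same redox pathways were read from 11 further lists, of which 10 had a tested gene. Of 38 genes measured, 18 had means above 0 and 20 below, with a median log2 ratio of -0.038. The smallest limma adjusted p among them was 0.596. Before adjustment 3 of the 38 had a p under 0.05, 2 higher and 1 lower with orexin B. The share of all tested probes was 7.72% (4.31% higher and 3.41% lower), and that of the brightest probes of the 1959 named genes was 10.5%.

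In the thioredoxin and glutaredoxin system (4 measured), TXNIP, which binds and inhibits thioredoxin, had ratios of 0.036, 1.41, 0.31 and 0.83 on arrays 1 to 4 and a mean of 0.65 ± 0.22 (unadjusted p = 0.0232, limma adjusted p = 0.596). All 4 arrays were above 0, with the highest values on arrays 2 and 4, where orexin B RNA was in Cy3, and its orientation term had an unadjusted p of 0.0120. TXNRD2, the mitochondrial thioredoxin reductase, had -0.15 ± 0.12, and GLRX, a glutaredoxin, 0.20 ± 0.17. Of other peroxiredoxins, the mitochondrial PRDX3 had 0.041 ± 0.14 and PRDX5 -0.18 ± 0.14. Neither reached an unadjusted p under 0.05.

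Among glutathione genes, GCLM, the modifier subunit of the enzyme that starts glutathione synthesis, had a mean of 0.094 ± 0.15, and the synthetase GSS -0.051 ± 0.14. Of 4 measured glutathione transferases 1 was above 0. MGST3, a microsomal transferase, had -0.38 ± 0.23, MGST1 -0.15 ± 0.21 and GSTA4, which conjugates lipid aldehydes, 0.19 ± 0.16. All 5 measured genes of the NRF2 list had means above 0, between 0.011 and 0.26, and 0 reached an unadjusted p under 0.05. Of all tested probes, 54.1% had means above 0. The list medians on arrays 1 to 4 were 0.32, -0.080, -0.038 and 0.25, and 0 of the 5 genes were above 0 on all 4 arrays. The list mixes genes of the pathway itself, such as KEAP1, with its targets. AKR1B1, an aldose reductase, had 0.26 ± 0.20, the carbonyl reductase CBR1 0.10 ± 0.12 and the quinone reductase NQO1 0.072 ± 0.16.

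In heme and iron handling (5 measured, 1 above 0), the ferritin chains lay on opposite sides of 0 in mean, with FTH1 (heavy chain) at 0.31 ± 0.21 and FTL (light chain) at -0.19 ± 0.15, and the ferroxidase CP (ceruloplasmin) had -0.082 ± 0.12. Of 7 selenoproteins and repair enzymes, 3 were above 0. SELENOS, a selenoprotein of the endoplasmic reticulum, had 0.34 ± 0.15 with 4 arrays above 0 (unadjusted p = 0.0519), MSRB1, which repairs oxidised methionine, had -0.25 ± 0.12 with 4 arrays below 0, and PARK7 had -0.23 ± 0.14. The metallothionein MT1A had -0.19, 0.55, -2.32 and 0.17 on arrays 1 to 4, with array 3 far below the rest, and a mean of -0.45 ± 0.43. MT3 had a mean of 0.097 ± 0.20.

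Sources of oxidants were mixed (6 measured, 2 above 0). MAOA, a mitochondrial amine oxidase that releases hydrogen peroxide, had ratios of -0.19, -1.10, -0.042 and -1.46 on arrays 1 to 4 and a mean of -0.70 ± 0.25 (unadjusted p = 0.0258, limma adjusted p = 0.5996). Its low arrays were 2 and 4. On these the 8 smooth muscle markers had medians of -1.14 and -1.22, against 0.073 and 0.17 on arrays 1 and 3. The 4 fibroblast and stroma markers had medians of -0.72 and -0.77 on arrays 2 and 4, against -0.016 and -0.0016 on arrays 1 and 3. Arrays 2 and 4 are also those with orexin B RNA in Cy3. The orientation term in limma had an unadjusted p of 0.00211 for MAOA (part 0.58, adjusted p = 0.235). Its unadjusted p was under 0.05 for 7 of the 8 smooth muscle markers and 2 of the 4 stroma markers, against 12.5% of all tested probes. The term passed an adjusted p of 0.05 for no tested probe. CYBA, a membrane subunit of NADPH oxidases, had -0.18 ± 0.12. The part of cell content in these values was not tested.

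**Figure D5:**
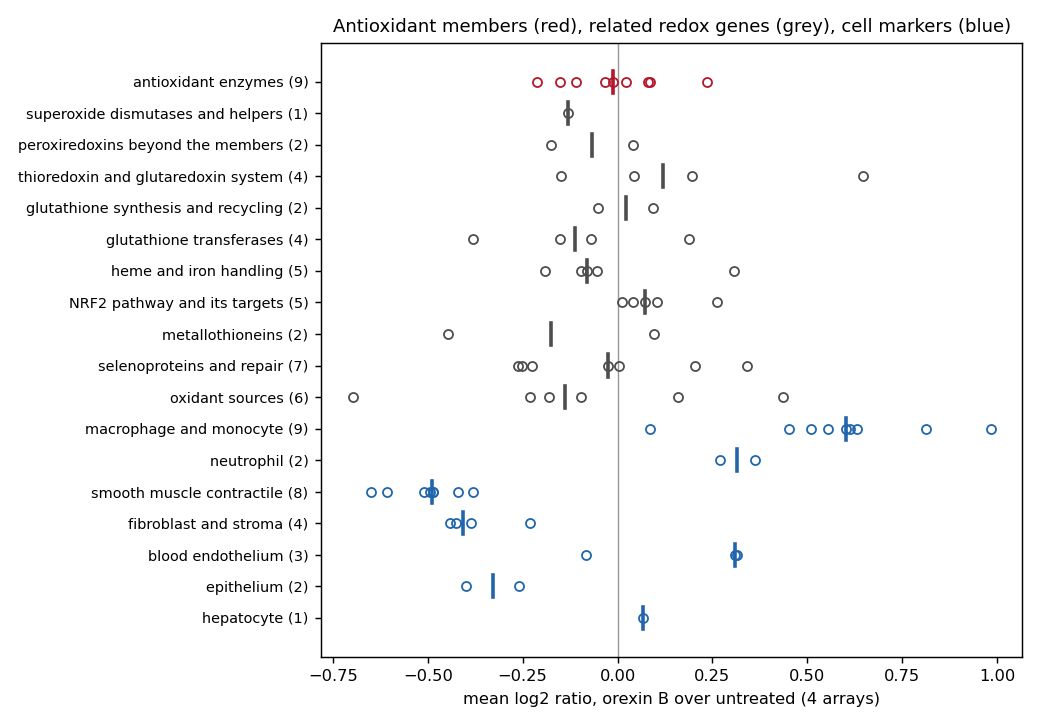
Mean log2 ratio of orexin B over untreated (horizontal axis) for each measured gene (circles) in the antioxidant set (red), the related redox lists (grey) and the cell marker lists (blue), with a bar at the median and the number of genes in brackets. By their brightest probes the antioxidant genes lie between -0.21 and 0.24, while the macrophage and smooth muscle medians are 0.60 and -0.49. Of the 8 smooth muscle markers, 0 reached an unadjusted limma p under 0.05.

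By the distance between their 4 array ratios, the named genes nearest to PRDX2 were RIIAD1 (distance 0.100) and LAMTOR2 (0.154). Those nearest to PRDX6 were PRNP (0.289) and CDC42SE1 (0.297), and those nearest to GPX1 were ACY1 (0.104) and VPS33A (0.173). The distances are Euclidean over 4 arrays among 1959 genes, and are given as a description.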

How the data were processed

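Total RNA of 4 orexin B and 4 untreated explant samples was measured on 4 Agilent arrays of 2 colours. Per the file headers, Agilent Feature Extraction 10.7.3.1 wrote the deposited scanner files. The deposited intensity values are median pixel values for spots and local background, and processed intensity values after background subtraction and dye normalization, per the file headers. The deposited log10 ratio is that of processed red over processed green. The deposited series table holds log2 ratios. Its values matched the processed orexin B over untreated ratio within 0.01 for 100% of probes with 1 spot, so the table was not centred again, and the medians of its 4 columns were -0.27, -0.082, -0.20 and -0.094. The genome build is not given in the sources used here, so no coordinates were used.

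Ratios were turned by the dye fields of the labels, whose protocol text states a single orientation, that of arrays 1 and 3. Background was corrected with normexp (offset 50), loess (weight 0 for control spots) was applied within arrays, and marked spots (31 to 138 per array) were left out, in R 4.3.3 with limma 3.58.1. Probes well above background on all 4 arrays in either group, with an unmarked spot on at least 3, were tested by lmFit and eBayes (prior degrees of freedom 4.10), two-sided, with Benjamini-Hochberg adjustment over 19879 probes. Levels were taken per channel after Aquantile scaling. The fit was tested on simulated data. RefSeq accessions of 6700 probes matched the Sscrofa11.1 gene table, 6599 of them to a gene symbol. For each gene of a list the brightest tested probe was used.

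The members, lists and tests were chosen with earlier results of these data known. All members were named whatever their values, with up to 3 genes of each related list by smallest p and the 2 nearest genes of 3 members. The values of 1 related gene are not reported here. The labels do not tie arrays to gilts, so p-values cover only the spread seen over 4 arrays. An exact sign-flip test of a single probe cannot go below p = 0.125 with 4 arrays and was not used. Plots used matplotlib 3.10.9 under Python 3.11.15.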

Additional observations from a re-analysis of the deposited data

Results flagged for a closer look

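For the member probes and the list medians, 53 sets in all, the gap of the highest or lowest array to its nearest neighbour was set against Dixon's 95% limit for 4 values. It was passed once, where chance gives 2.65. The median log2 ratio of the thioredoxin and glutaredoxin genes was 0.63 on array 4, against 0.039, 0.0016 and 0.074 on arrays 1 to 3. The 4 genes behind it were TXNIP, TXNRD1, TXNRD2 and GLRX, with 0.83, 0.69, -0.26 and 0.56 on array 4. TXNRD2 was thus below 0 there, and TXNIP was higher on array 2, at 1.41. The flag concerns the median of genes that differed among themselves, and not a rise shared by all 4. No member probe stood apart in this way.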

How the results depend on the processing

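No adjusted call was made under any alternative that tested all probes. For the mean of all probes of a gene, calls were read for the members alone, and none passed. The signs of CAT, PRDX2 and PRDX6 held in all 15 of their alternatives, but not all of these could change a sign. A stricter brightness filter, no filter, the orientation term and no moderation left the mean ratios unchanged. The deposited series table gave almost the same values as Agilent's processed ratio, and unturned dyes do not measure the treatment. The sizes of CAT, PRDX2 and PRDX6 did not hold, with leave-one-out ranges of -0.24 to -0.016, -0.31 to -0.16 and 0.069 to 0.49. GPX1 changed sign only with unturned dyes, and ran from -0.32 to -0.024 on leaving out a replicate. The signs of the other members did not all hold, and the cause was not tested. Median centring in place of loess gave SOD1 -0.037 and TXN -0.049. Agilent's processed ratio and the authors' deposited series table gave GPX4 0.0034. Leaving Cy5 over Cy3 unturned on arrays 2 and 4, which measures the dye and not the treatment, gave GPX1 0.26, GPX3 -0.11, GPX4 0.050 and TXN -0.062. Slide as a random block (estimated correlation -0.26) gave GPX3 -0.0023 and HMOX1 0.026, and the mean of all probes gave GPX3 -0.0078. Leaving out each replicate in turn gave SOD1 -0.063 to 0.21, GPX3 -0.069 to 0.15, GPX4 -0.061 to 0.068, HMOX1 -0.13 to 0.097 and TXN -0.029 to 0.15. The number of members at an unadjusted p under 0.05, 0 in limma, was 0 to 1 over these, the 1 being PRDX6 without replicate 2. The number of all probes at that level, 1534, became 177 with median centring, 2302 with no filter on dim probes, 2382 with a dye orientation term, 4280 with the slide block and 726 to 1922 on leaving out a replicate. That of related redox genes, 3, became 0 with median centring, 5 with no filter, 5 with the orientation term, 6 unturned, 9 with the slide block, 1 without moderation and 0 to 4 on leaving out a replicate. The GPX3 level range of 3.63, whose alternatives were chosen after seeing the data, was 1.95 to 3.63 on leaving out a replicate. No further pairing was added, because each ratio already pairs orexin B RNA with untreated RNA on the same array. The labels do not say whether these pairs are also pairs by gilt.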
